A study of Mus musculus with 6 samples.

Results

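Potassium channels opened by intracellular calcium or sodium were followed in primary mouse neurons in which the gene of another potassium channel, *Kcna1*, had been activated. The group held 7 genes chosen by symbol, *Kcnma1*, *Kcnmb4*, *Kcnn1*, *Kcnn2*, *Kcnn3*, *Kcnt1* and *Kcnt2*, out of 50508 symbols listed, and all 7 were among the 19504 genes above 0 in at least 1 library. Polyadenylated RNA was sequenced from 3 libraries labelled sgLacZ (Ctrl-dCas9A) and 3 labelled sgKcna1 (Kcna1-dCas9A). Both groups carried the same lentiviral activator, a nuclease-dead Cas9 fused to VP160 and driven by the ubiquitous *Ef1alpha* promoter, and received it at 1 day *in vitro*, so that they differed by design in the guide alone, and the promoter does not restrict expression to neurons. The control guide was directed at the bacterial gene LacZ. The cells came from C57Bl/6J mice by the methods of the study, which name cortical neurons of newborn pups, whereas the labels name hippocampal neurons, and RNA was taken at 10 days *in vitro* by the sequencing methods but later by the culture methods. The methods state in general that experiments were repeated independently, but neither source ties the 3 libraries of a group to separate cultures, so the p-values measure the spread between these libraries, which may be technical. In bulk RNA of this kind, fewer cells of a type and less RNA per cell cannot be told apart.

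*Kcnma1* encodes the pore of the BK channel, which opens on depolarization together with a rise in intracellular calcium and contributes to spike repolarization and the fast afterhyperpolarization. *Kcnmb4* encodes its neuronal auxiliary subunit beta4, which slows gating and makes the channel resistant to iberiotoxin. *Kcnn1*, *Kcnn2* and *Kcnn3* encode the SK channels SK1, SK2 and SK3, which are insensitive to voltage, sense calcium through bound calmodulin and carry the medium afterhyperpolarization. *Kcnt1* (Slack) and *Kcnt2* (Slick) encode sodium-activated channels of the same superfamily as BK. *Kcna1* encodes Kv1.1, a voltage-gated channel that does not depend on these ions and limits firing.

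The guide is shown first because it is the only designed difference between the groups, together with the nearest look-alikes by the BK genes. It is printed with its NGG motif in capitals, and the sites in lower case with the bases that differ from the guide in capitals, all 5′ to 3′.
sg19: agtcaatgatcacatcctccTGG
Kcnma1 site: CgGTGCtCCGcGcaGccCcG
Kcnmb4 site: GgCGGTtgaGcTcGGcGCcG
On NCBIM37, sg19 matched chromosome 6 at 1 position, from 126595930 to 126595949 on the plus strand, beside *Kcna1*. RefSeq start-site windows of 300 bases (GRCm38.p6) were searched for 5 of the 7 genes. Windows on 1 chromosome were left out beforehand, and none for *Kcnn2* or *Kcnt1* was among those searched. The *Kcnma1* window was chr14:24004156-24004455 and the *Kcnmb4* window chr10:116473474-116473773, both on the minus strand. All of the *Kcnmb4* window lay within a GENCODE vM1 transcript of that gene, so its site is in the 5′ part of the transcript. The site closest to sg19 beside an NGG differed at 12 of 20 bases in the *Kcnma1*, *Kcnmb4* and *Kcnt2* windows and at 10 in those of *Kcnn1* and *Kcnn3*. Of 32851 windows, 97.2% held a site with 12 or fewer differences and 42.6% one with 10 or fewer. A difference at 12 bases is thus met in nearly every gene, and regions outside the windows were not searched.

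*Kcna1* stood at 16 in each Ctrl-dCas9A library against 68, 47 and 65 under sg19, an increase of 1.83 on the log2 scale (SE 0.16, adjusted p = 0.0345, limma with Benjamini-Hochberg adjustment over 19504 genes). The fold change lay from 1.73 to 1.99 with each library left out, but the adjusted p then rose to between 0.112 and 0.143 in all but the fit without Ctrl-dCas9A replicate 3 (0.0186). The values are whole numbers that sum to between 999047 and 999717 per library and were read as CPM (reads scaled to a common library total of 1000000) rounded to whole numbers, so the depth is unknown. Ctrl-dCas9A replicate 3 stood apart. Over 8050 genes with a mean of at least 10, its values correlated at r = 0.954 and 0.960 with the other Ctrl-dCas9A libraries, but at 0.974, 0.970 and 0.958 with Kcna1-dCas9A replicates 1, 2 and 3, although its *Kcna1* value was that of a control. Fold changes of the channel genes are therefore also given without it, except for *Kcnn3*, which was at or near 0. Markers of excitatory neurons were present at a summed level of 1260 to 1407 in Ctrl-dCas9A and 1197 to 1265 in Kcna1-dCas9A, and those of inhibitory neurons at 305 to 338 and 297 to 360. Both sums join genes with fold changes of either sign. Of the 7 excitatory markers, 2 were higher in every Kcna1-dCas9A library and 1 was lower in every one. Of the 8 inhibitory markers, 1 was higher and 3 were lower in every one. In both lists 0 were past the threshold. Groups did not overlap, in either direction, for 39.8% of genes with a mean of at least 10 and 22.2% of all genes tested. The 8 astrocyte markers summed to 917 to 1034 against 663 to 692, with *Aqp4*, *Aldoc* and *Sox9* past the threshold and lower. Dividing-cell markers summed to 121 to 126 against 71 to 75 (0 of 8 past the threshold), oligodendrocyte-lineage markers to 66 to 98 against 40 to 44 (*Olig2* lower, *Mog* at 0), microglial markers to 23 to 27 against 55 to 73 (*C1qa* higher, *P2ry12* at 0) and vascular markers to 6 to 12 against 5 to 8 (0 past the threshold, *Myh11* at 0). The 7 oligodendrocyte-lineage markers tested did not all go the same way, with 4 lower and 1 higher in every Kcna1-dCas9A library. The part of these marker differences in the results on the channel genes was not tested.

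None of the 7 channel genes passed an adjusted p of 0.05 in limma, where 226 of 19504 genes (1.16%) did, 68 of them higher and 158 lower. After median-of-ratios scaling 1719 genes passed (962 higher, 757 lower), still with 0 of the 7. At an unadjusted p under 0.05 the count was 1 of 7, *Kcnmb4*, against 23.2% of all genes tested. With upper-quartile scaling the 1 gene was *Kcnma1* instead (unadjusted p = 0.0426 from limma, and 0.0599 for *Kcnmb4*). *Kcnn2* joined *Kcnmb4* with a robust variance (unadjusted p = 0.0179, adjusted p = 0.0955 from limma). It also did so without a low-value filter (unadjusted p = 0.00567, adjusted p = 0.0973 from limma). The fold changes of 4 of the 7 were above 0 and those of 3 below, with a median of 0.18, beside a median of -0.02 over all genes. Summed over the 7 genes, the values were 72, 76 and 89 in Ctrl-dCas9A and 77, 78 and 90 in Kcna1-dCas9A, so the total overlapped between the groups.

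**Figure D1:**
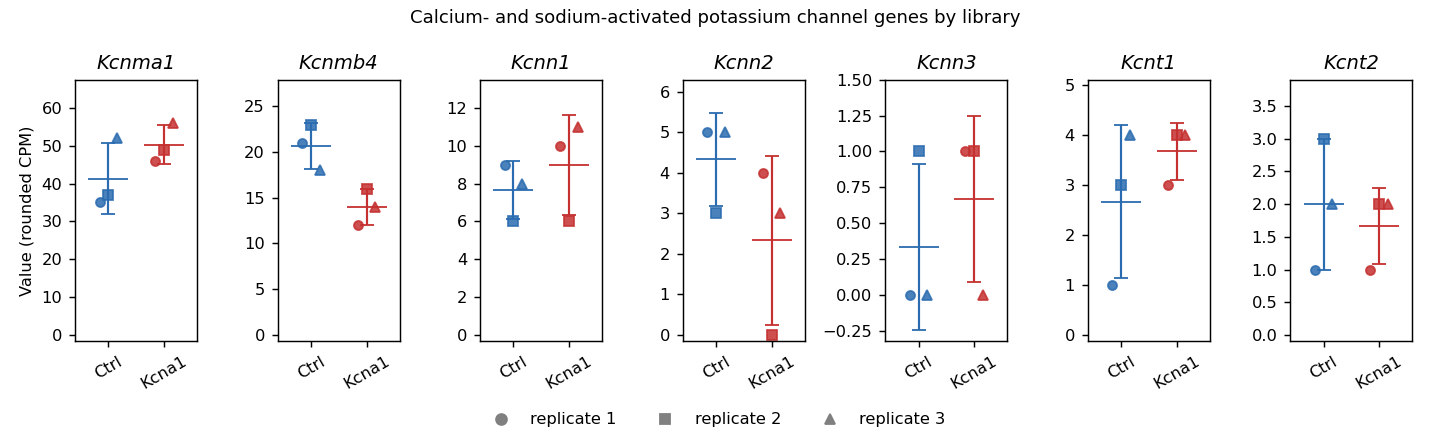
Values of the 7 genes in each library (vertical axes, rounded CPM, with a separate scale for each gene) in Ctrl-dCas9A (blue) and Kcna1-dCas9A (red), with marker shapes for the replicates and a horizontal line and bars for mean ± SD (n = 3). The groups are apart for *Kcnmb4*, at 18 to 23 against 12 to 16, and overlap for the other genes.

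The BK pore gene *Kcnma1* had values of 35, 37 and 52 in Ctrl-dCas9A and 46, 49 and 56 in Kcna1-dCas9A. The lower 2 control libraries lay under every Kcna1-dCas9A library, while Ctrl-dCas9A replicate 3 lay among them. The means were 41.3 ± 9.3 in Ctrl-dCas9A and 50.3 ± 5.1 in Kcna1-dCas9A (SD, n = 3 each). The log2 fold change on log2(value + 1) was 0.30 (SE 0.17, 95% interval -0.12 to 0.71, adjusted p = 0.35 from limma), or 1.23-fold with an interval of 0.923 to 1.63. A two-sided exact permutation test of the values gave p = 0.3, where 0.1 is the smallest p that 3 libraries against 3 allow. Without Ctrl-dCas9A replicate 3 the log2 fold change was 0.47 (SE 0.11, interval 0.17 to 0.76) and the adjusted p 0.0603, a shift of over 1.5 times. Without Ctrl-dCas9A replicate 1 it moved the other way, to 0.19 (interval -0.30 to 0.68, adjusted p = 0.613 from limma). No change in *Kcnma1* lies within the intervals over all 6 libraries and without replicate 1, but not within the one without replicate 3.

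The beta4 gene *Kcnmb4* had values of 21, 23 and 18 in Ctrl-dCas9A and 12, 16 and 14 in Kcna1-dCas9A. Every Kcna1-dCas9A library lay below every control library, a pattern shared by 13.3% of the genes tested and, in either direction, by 22.2%. Among genes with a mean of at least 10, the level of *Kcnmb4*, these shares were 23.9% and 39.8%. The means were 20.7 ± 2.5 in Ctrl-dCas9A and 14 ± 2 in Kcna1-dCas9A (SD, n = 3 each). The log2 fold change was -0.53 (SE 0.17, interval -0.93 to -0.13), or 0.691-fold with an interval of 0.524 to 0.912. The unadjusted p was 0.0162 and the adjusted p 0.117 from limma, and the two-sided exact permutation test gave p = 0.1. With Ctrl-dCas9A replicate 3 left out, the log2 fold change was -0.62 (SE 0.15, interval -1.03 to -0.22, adjusted p = 0.0651 from limma). Testing only the 7048 genes with at least 10 in every library gave the same fold change with an adjusted p of 0.0479, the single setting of 17 in which *Kcnmb4* passed, but 27.6% of the genes tested passed there. The scaling moved both BK genes. With upper-quartile factors *Kcnma1* was at 0.41 (interval 0.016 to 0.81, adjusted p = 0.187 from limma) and *Kcnmb4* at -0.42 (interval -0.86 to 0.02, adjusted p = 0.228 from limma), so that the interval of *Kcnma1* no longer spanned 0 and that of *Kcnmb4* did. That scaling moved the median log2 fold change over genes with a mean of at least 10 from -0.06 to 0.06, and relative to this shift both genes kept about the same place. Without Ctrl-dCas9A replicate 3, *Kcnmb4* and *Kcnma1* were the 2 of the 7 genes whose groups did not overlap, where 37.4% of 19122 genes did not.

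**Figure D2:**
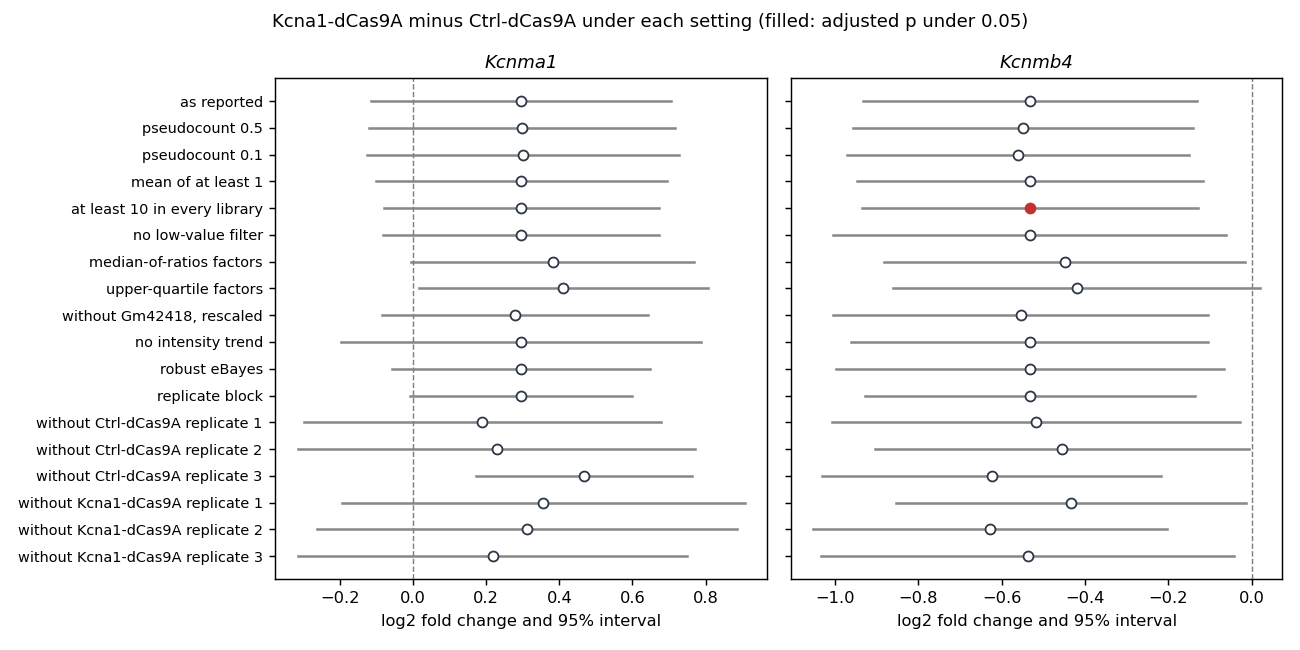
Log2 fold change, Kcna1-dCas9A minus Ctrl-dCas9A, of *Kcnma1* and *Kcnmb4* (horizontal axes) as reported and under each of 17 alternative settings (vertical axis). Points are estimates, bars are 95% intervals, and the filled point has an adjusted p under 0.05. Every estimate lies above 0 for *Kcnma1* (0.19 to 0.47) and below 0 for *Kcnmb4* (-0.63 to -0.42).

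An antisense transcript, *Kcnmb4os2*, overlaps *Kcnmb4*, and the kit is stranded but the strand setting of the counting is not given, so reads of the pair may not be separate. *Kcnmb4os2*, named here with its values already known, had 15, 13 and 9 in Ctrl-dCas9A against 14, 9 and 10 in Kcna1-dCas9A. These groups overlapped, unlike those of *Kcnmb4*.

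**Figure D3:**
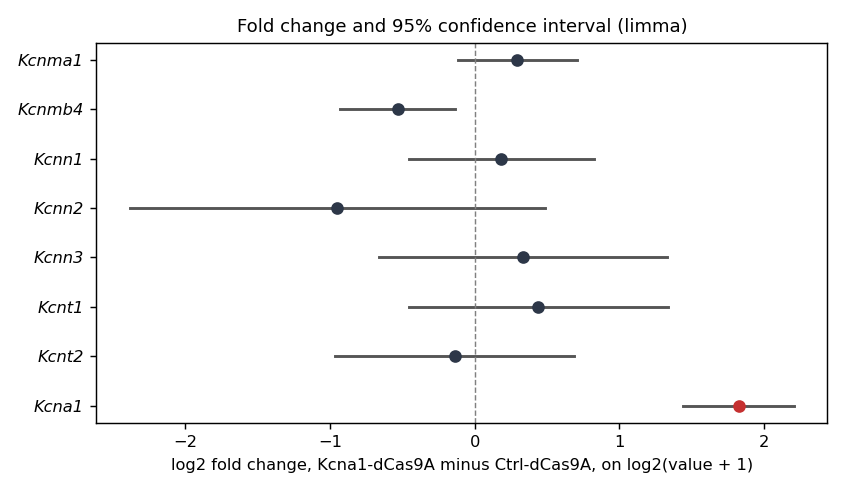
Log2 fold change, Kcna1-dCas9A minus Ctrl-dCas9A, on log2(value + 1) (horizontal axis) for the 7 channel genes and, in red, the targeted *Kcna1*. Points are limma estimates from 3 libraries a group and bars are 95% intervals, which span 0 for 6 of the 7 genes and are widest for *Kcnn2*, from -2.39 to 0.49.

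The balance of auxiliary to pore transcripts was described by the ratio of the *Kcnmb4* to the *Kcnma1* value within a library, which library scaling cannot change. Values from this 3′ kit count transcript ends and were not divided by length. The ratio was 0.6, 0.622 and 0.346 in Ctrl-dCas9A and 0.261, 0.327 and 0.25 in Kcna1-dCas9A. The control ratio of replicate 3 was far below the others and only just above the highest Kcna1-dCas9A ratio. The means were 0.523 ± 0.153 (SD, n = 3) and 0.279 ± 0.0414 (SD, n = 3), and the difference of -0.24 ranged from -0.33 to -0.19 as each library was left out. A ratio to *Kcnma1* below every control in every Kcna1-dCas9A library was found for 23.9% of 8049 other genes with a mean of at least 10. *Kcnmb2*, which encodes the inactivating beta2 subunit, had ratios to *Kcnma1* of 0.429, 0.676 and 0.442 in Ctrl-dCas9A and 0.5, 0.449 and 0.482 in Kcna1-dCas9A, with the groups overlapping. As a share of *Kcnmb2* plus *Kcnmb4*, *Kcnmb4* made up 58.3%, 47.9% and 43.9% in Ctrl-dCas9A and 34.3%, 42.1% and 34.1% in Kcna1-dCas9A. The beta4 share was thus lower in each Kcna1-dCas9A library, by a margin at the nearest pair that is small beside the spread within either group.

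**Figure D4:**
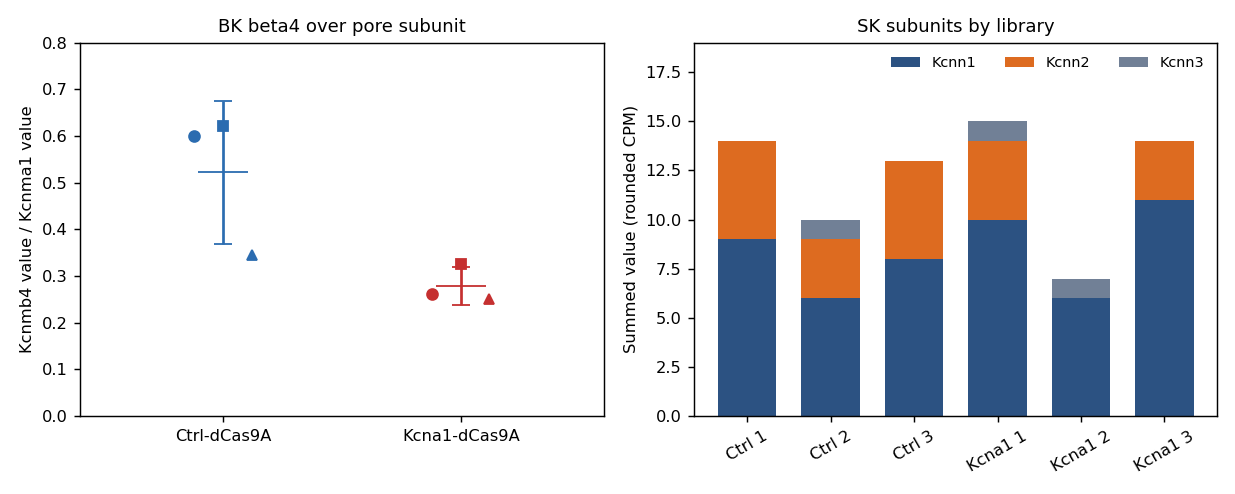
Left, ratio of the *Kcnmb4* to the *Kcnma1* value (vertical axis) by group, with marker shapes for replicates 1 (circle), 2 (square) and 3 (triangle) and lines for mean ± SD (n = 3). Right, stacked values of *Kcnn1*, *Kcnn2* and *Kcnn3* (vertical axis, rounded CPM) in each library. The control ratio of 0.346 in replicate 3 lies close to the Kcna1-dCas9A ratios, and the SK sums of 7 to 15 overlap between the groups.

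Among the SK genes *Kcnn1* had the highest value in every library. *Kcnn1* had values of 9, 6 and 8 in Ctrl-dCas9A against 10, 6 and 11 in Kcna1-dCas9A, a difference of 0.18 on the log2 scale (SE 0.27, interval -0.46 to 0.82, adjusted p = 0.66 from limma). The groups overlapped and shared a lowest value of 6. The difference was 0.03 without Kcna1-dCas9A replicate 3, 0.04 without Ctrl-dCas9A replicate 2, 0.10 without Kcna1-dCas9A replicate 1, 0.42 without Kcna1-dCas9A replicate 2, 0.30 without Ctrl-dCas9A replicate 1 and 0.22 without Ctrl-dCas9A replicate 3. *Kcnn2* had 5, 3 and 5 against 4, 0 and 3. The estimated log2 fold change was -0.95 (SE 0.61, interval -2.39 to 0.49, adjusted p = 0.401 from limma), and -0.23 without Kcna1-dCas9A replicate 2, the library listed at 0. Without Ctrl-dCas9A replicate 3 it was -0.85. The size of that value therefore rests on 1 library. *Kcnn3* was listed at 1 in Ctrl-dCas9A replicate 2 and in Kcna1-dCas9A replicates 1 and 2, and at 0 elsewhere, too low for a comparison. The summed SK values were 14, 10 and 13 in Ctrl-dCas9A and 15, 7 and 14 in Kcna1-dCas9A, on average 12.3 ± 2.08 and 12 ± 4.36 (SD, n = 3 each). *Kcnn1* made up 64.3%, 60% and 61.5% of that sum in Ctrl-dCas9A and 66.7%, 85.7% and 78.6% in Kcna1-dCas9A. These shares did not overlap, but they rest on single-digit values, in which a change of 1 moves a share by several percentage points.

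The sodium-activated channel genes were listed at low values. *Kcnt1* (Slack) had 1, 3 and 4 in Ctrl-dCas9A against 3, 4 and 4 in Kcna1-dCas9A, a difference of 0.44 on the log2 scale (SE 0.38, interval -0.45 to 1.33, adjusted p = 0.513 from limma). Without Ctrl-dCas9A replicate 1, the library at 1, it was 0.05, and without Ctrl-dCas9A replicate 3 it was 0.71 (adjusted p = 0.282 from limma). *Kcnt2* (Slick) had 1, 3 and 2 against 1, 2 and 2, a log2 fold change of -0.14 (SE 0.35, interval -0.97 to 0.69, adjusted p = 0.824 from limma), which turned positive when either of 2 libraries was left out and was -0.11 without Ctrl-dCas9A replicate 3. Both genes overlapped between the groups, and the width of the intervals leaves changes of either sign within reach.

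The channel genes kept most of their order of level in every library. Over the 6 libraries *Kcnma1* had a mean of 45.8 (range 35 to 56), at or above 82.1% of the genes tested. *Kcnmb4* followed at 17.3 (12 to 23, 67% of genes) and *Kcnn1* at 8.33 (6 to 11, 56.4%). Each of these genes exceeded the next in 6 of 6 libraries with no overlap of their ranges. *Kcnn2* at 3.33, *Kcnt1* at 3.17 and *Kcnt2* at 1.83 had overlapping ranges and did not differ beyond their spread, with *Kcnn2* above *Kcnt1* in 3 libraries and *Kcnt1* above *Kcnt2* in 4. *Kcnn3* was lowest at 0.5, below *Kcnt2* in 5 of the 6 libraries. *Kcnma1* accounted for 48.6%, 48.7% and 58.4% of the summed values of the 7 genes in Ctrl-dCas9A and for 59.7%, 62.8% and 62.2% in Kcna1-dCas9A.

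Genes that work with these channels were described in 4 lists, of other subunits, bound regulators, calcium sources and sodium sources. Of 50 such genes 43 were tested, and 0 passed the threshold in limma. At an unadjusted p under 0.05 there were 15, 8 higher and 7 lower. Among the 39 with a mean of at least 10, 14 (35.9%) had an unadjusted p under 0.05, against 39.7% of all genes at that level, and 14 (35.9%) had groups that did not overlap, against 39.8%. Their shares were thus near the background. The median log2 fold change of the 43 was 0.08, against -0.02 over all genes tested. Without Ctrl-dCas9A replicate 3, 5 of the 43 passed (11.6%), *Cacna1e*, *Calm2* and *Ryr3* higher and *Csnk2a1* and *Ppp2r1a* lower, where 14.2% of all genes tested did, so that share too was near the background.

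Other subunits of the BK, SK and Slo families were 9, of which 6 were at 0 in every library, *Kcnmb1*, *Kcnmb3*, *Kcnn4*, *Lrrc26*, *Lrrc38* and *Lrrc52*. The BK auxiliary genes listed besides *Kcnmb4* were *Kcnmb2* and *Lrrc55*, the latter encoding a gamma subunit that shifts BK opening toward negative voltages. *Lrrc55* had values of 40, 44 and 41 in Ctrl-dCas9A against 34, 29 and 29 in Kcna1-dCas9A (log2 fold change -0.43, SE 0.12, adjusted p = 0.0854 from limma). Every Kcna1-dCas9A library lay below the controls, as for *Kcnmb4*. *Kcnmb2* had 15, 25 and 23 against 23, 22 and 27 (log2 fold change 0.21, adjusted p = 0.515 from limma). *Kcnu1*, which encodes the Slo3 channel known from sperm and was named with its values already known, was listed at 4, 2 and 4 against 5, 7 and 6 (log2 fold change 0.72, adjusted p = 0.186 from limma).

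Of the 12 regulators bound to BK, SK or Slack, 11 had a log2 fold change below 0 and 1 above, with a median of -0.16. The median over all genes with a mean of at least 10 was -0.06. The count below 0 was 9 with median-of-ratios and 8 with upper-quartile factors (median -0.04). Their groups did not overlap in 5 (41.7%), all lower, where 39.8% of genes with a mean of at least 10 did not overlap in either direction and 23.9% were lower. *Csnk2a1* encodes the catalytic alpha subunit of CK2, which sits on SK channels and lowers their calcium sensitivity by phosphorylating calmodulin. Its values were 292, 276 and 262 in Ctrl-dCas9A against 211, 204 and 174 in Kcna1-dCas9A (log2 fold change -0.50, SE 0.10, adjusted p = 0.0556 from limma). *Csnk2a1* passed in 6 of 17 alternative settings, in which from 1543 to 2884 genes passed. *Fmr1*, whose protein binds Slack and beta4, had 60, 51 and 62 against 47, 43 and 45 (log2 fold change -0.35, adjusted p = 0.131 from limma). *Calm2*, one of the genes for the calmodulin on SK, was the exception in sign at 854, 800 and 1290 against 1297, 1226 and 1224 (log2 fold change 0.38, adjusted p = 0.262 from limma). The controls were split there, since Ctrl-dCas9A replicate 3 lay at the level of the Kcna1-dCas9A libraries.

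Of the 17 calcium sources, 13 had a log2 fold change above 0 and 4 below, with a median of 0.19. The count above 0 was 14 with median-of-ratios and with upper-quartile factors. *Cacna1e*, the R-type calcium channel, had 38, 38 and 65 in Ctrl-dCas9A against 103, 87 and 103 in Kcna1-dCas9A (log2 fold change 1.08, SE 0.22, adjusted p = 0.0556 from limma). Its groups did not overlap, as for 39.8% of genes with a mean of at least 10. It passed in 8 of 17 alternative settings, in which from 1543 to 2884 genes passed. *Cacna1h*, a T-type channel, had 25, 32 and 46 against 63, 46 and 85 (log2 fold change 0.89, adjusted p = 0.116 from limma), with 46 shared by a library of each group. *Cacna1h* passed in 6 of 17, in which from 1719 to 2884 genes passed. *Ryr3*, a ryanodine receptor of the endoplasmic reticulum, had 19, 15 and 33 against 31, 28 and 36 (log2 fold change 0.55, adjusted p = 0.268 from limma). In all of these calcium genes Ctrl-dCas9A replicate 3 was the highest control.

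Of the 11 sodium sources tested, 8 had a log2 fold change above 0 and 3 below, with a median of 0.31, and *Scn4b* was at 0 in every library. With median-of-ratios and with upper-quartile factors, 9 were above 0. *Scn8a*, the Nav1.6 channel of the axon initial segment, had 31, 34 and 37 in Ctrl-dCas9A and 56, 43 and 42 in Kcna1-dCas9A (log2 fold change 0.45, SE 0.15, adjusted p = 0.13 from limma). *Gria3*, an AMPA receptor subunit, had 53, 61 and 57 against 40, 50 and 37 (log2 fold change -0.43, adjusted p = 0.125 from limma). The groups did not overlap for either *Scn8a* or *Gria3*, and neither passed the threshold.

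**Figure D5:**
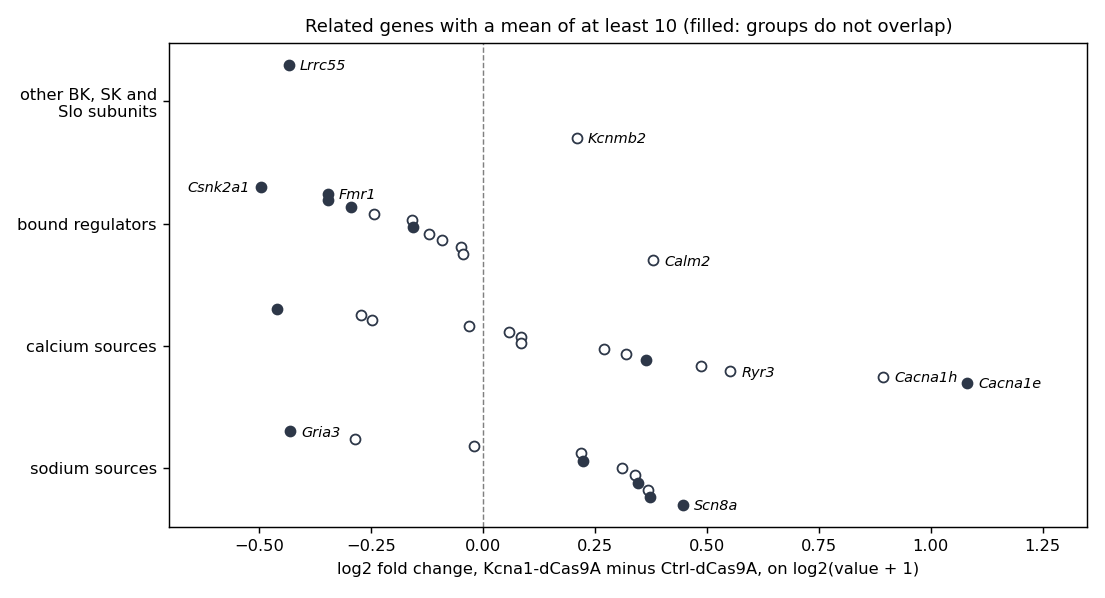
Log2 fold change, Kcna1-dCas9A minus Ctrl-dCas9A, on log2(value + 1) (horizontal axis) of the 39 related genes with a mean of at least 10, by list (vertical axis). Each point is a gene, filled where the 3 libraries of one group lie beyond all 3 of the other. The regulators lie mostly below 0, and *Cacna1e* at 1.08 lies farthest from it, but 0 of these genes passed the threshold.

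The genes whose pattern over the 6 libraries was most like that of *Kcnma1*, the highest of the channel genes, were *Nolc1* (Pearson r = 0.995 on log2(value + 1)), *Kcnk10* (r = 0.992) and *Mdp1* (r = 0.991). *Kcnk10* encodes TREK-2, a background potassium channel. Among 8049 genes with a mean of at least 10, 388 reached r of at least 0.9, so such likeness was frequent, and the 6 points share the group difference and the position of Ctrl-dCas9A replicate 3.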

How the data were processed

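RNA-seq libraries were made by the authors with the QuantSeq 3′ mRNA kit (FWD) and sequenced as stranded reads. By the methods of the study, reads were aligned to NCBI37/mm9 with Bowtie2, whereas the submitters' processing notes list mm10, STAR 2.7, featureCounts and DESeq2 without roles, so the build and counter of the values used here are unresolved, as is the strand setting. The deposited score per gene is a whole number, 1 file a library, read here, from library totals just under 1000000, as a CPM value rounded to whole numbers before deposit. The number of reads, and any interval or floor that needs it, is unknown.

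The 19504 genes with any value above 0 were compared on log2(value + 1) with limma 3.58.1 in R 4.3.3 (lmFit, eBayes with an intensity trend), fitting group alone, and p-values were adjusted by Benjamini-Hochberg with a threshold of 0.05. A fold change on this scale understates that of low genes. The planned count tests were not run, since the files hold no counts. Exact permutation tests of single genes were two-sided. The script was tested on simulated data. Sites resembling sg19 were sought with Python 3.11.15 on chromosome 6 of NCBIM37 and in RefSeq windows around each start. Windows with no NGG and all those on 1 chromosome were left out.

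Members and lists were chosen with earlier results of these data known. The text names the 7 channel genes, *Kcna1*, in each list of related genes the 3 with the largest absolute log2 fold change at a mean of at least 10, any related gene or marker past the threshold, and the 3 genes most like *Kcnma1*. *Kcnmb4os2*, *Kcnu1* and *Ppp2r1a*, and those at 0, fall outside this rule and were chosen with their values known. A gene that the rule names among the sodium sources is not reported here. Alternatives were 2 pseudocounts, 3 low-value filters, 3 scalings, 2 variance models, the replicate number as a block and each library left out.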

Additional observations from a re-analysis of the deposited data

How the results depend on the processing

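The log2 fold changes of *Kcnma1*, *Kcnmb4*, *Kcnn1*, *Kcnn2*, *Kcnn3* and *Kcnt1* kept their direction under every alternative that gave a value (15 to 17 settings each), and none but that of *Kcnmb4* changed its side of the threshold. With at least 10 in every library, a filter that kept *Kcnma1* and *Kcnmb4* of the 7, *Kcnmb4* at -0.53 passed (adjusted p = 0.0479 from limma), so that 1 of the 2 tested did, beside 27.6% of the genes tested. With each library left out, the log2 fold change lay from 0.19 to 0.47 for *Kcnma1*, from -0.63 to -0.43 for *Kcnmb4*, from 0.03 to 0.42 for *Kcnn1*, from -1.39 to -0.23 for *Kcnn2*, from 0.17 to 0.67 for *Kcnn3*, from 0.05 to 0.71 for *Kcnt1* and from -0.40 to 0.10 for *Kcnt2*, which was 0.10 without Ctrl-dCas9A replicate 2 and 0.06 without Kcna1-dCas9A replicate 1. With a pseudocount of 0.1 *Kcnn2* was at -2.00 and *Kcnn3* at 1.15. *Kcna1* lay from 1.73 to 1.99 with adjusted p from 0.0186 to 0.143, and passed among these only without Ctrl-dCas9A replicate 3.

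The number of genes past the threshold, 226 as reported, was 10 with a pseudocount of 0.5, 627 with 0.1, 1543 with a mean of at least 1, 1946 with at least 10 in every library, 2405 without a filter (where most variances were 0), 1719 with median-of-ratios factors, 2058 with upper-quartile factors (1226 higher, 832 lower), 1768 without Gm42418 and 2884 with a robust variance. It lay from 0 to 2711 with libraries left out, 2711 without Ctrl-dCas9A replicate 3 and 0 without any other. Related genes past the threshold, 0 as reported, were 2 with a mean of at least 1 or median-of-ratios factors, 3 with at least 10 in every library or without Gm42418, 4 without a filter, with upper-quartile factors or a robust variance, and from 0 to 5 with libraries left out. Related genes tested were 43, but 37 with at least 10 in every library and 50 without a filter. Genes tested in all were 13604 with a mean of at least 1 and 50508 without a filter. With at least 10 in every library they were 7048, of which 27.6% passed. Without Ctrl-dCas9A replicate 3 14.2% of all genes tested passed. The cause of the differences between settings was not tested. Upper-quartile factors moved the median log2 fold change from -0.02 to 0.03 over all genes and from -0.06 to 0.06 over those with a mean of at least 10.

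Same-numbered libraries deviated from their group means with correlations of 0.014, 0.114 and 0.154 across genes, and Ctrl-dCas9A replicate 1 correlated best with Kcna1-dCas9A replicate 2, so the numbers were not taken to pair the libraries. With the replicate number as a block, 0 genes passed, *Kcna1* at 1.83 had an adjusted p of 0.111 from limma and *Kcnmb4* one of 0.154, and the block changed no call among the 7 channel genes. Count models were not run. Rounding to whole numbers limits the 4 genes with means under 5 most.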
